A study of Rattus norvegicus with 6 samples.

Results

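Mitochondrial ribosomal proteins are the nuclear-encoded protein components of the ribosome that works inside mitochondria. Members were all gene symbols of the deposited count table that begin with Mrpl or Mrps followed by a number, 71 of the 17487 symbols in the table. Of these, 43 carried an Mrpl and 28 an Mrps symbol. Hearts of 6 adult male Wistar rats, an outbred strain, were compared, with 1 RNA-seq library per rat. In the doxorubicin group 3 rats received doxorubicin hydrochloride, an anthracycline chemotherapy drug, into the tail vein at 3.75 mg/kg each week over 4 weeks, and in the control group 3 rats received 0.9% sodium chloride in the same way. The labels name no genetic modification, no region of the heart and no interval between the last injection and tissue collection.

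The mitochondrial ribosome translates the few messenger RNAs made from mitochondrial DNA, which code for core subunits of the respiratory chain and ATP synthase. Its ribosomal RNAs come from mitochondrial DNA, whereas all of its proteins are translated in the cytosol and imported. The large subunit holds the peptidyl transferase centre and the tunnel through which the new protein leaves, and the small subunit binds the messenger RNA and reads its codons. The heart depends on oxidative phosphorylation, and inherited defects of several of these proteins cause cardiomyopathy.

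Members were assigned by their known place in the mammalian mitochondrial ribosome and not by symbol alone, which put 45 members in the large and 25 in the small subunit. Mrps30 and Mrps18a carry small-subunit names but sit in the large subunit. Mrps36, now also called Kgd4, is a component of the 2-oxoglutarate dehydrogenase complex and was counted in neither subunit. Of the large-subunit members, 25 were classed as having a bacterial homologue and 20 as specific to mitochondria. Of the small-subunit members, 15 and 10 were so classed. Mrps18a and Mrps18b were put in the mitochondrion-specific class, although their paralog Mrps18c was classed as having a bacterial homologue. The table spells 3 further genes of this family in lower case (mrpl9, mrpl11 and mrpl24), so they did not meet the rule, and their values are given separately.

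Promoter windows from RefSeq (build GRCr8, 250 bases before to 50 after the annotated start) were found for 56 of the 71 members. Short motifs of factors known from promoters of nuclear genes for mitochondrial proteins were searched on both strands. The ETS core CGGAAG, bound by the GABP factor, was present in 30 of 56 members (53.6%), against 33.4% of the promoters of symbols tested here and 18.2% of all symbols with a window. The letters AAGATGGC, the core of the YY1 motif, were in 14 members (25.0%), against 6.12% of tested and 3.62% of all symbols. In 11 of these 14 members a match reached past the annotated start. The NRF1 core GCATGCGC was in 5 members (8.93%, against 5.41% and 2.77%). The longer ETS form CCGGAAGT, which contains the ETS core, was in 8 members (14.3%, against 9.13% and 4.20%). The Sp1 motif GGGGCGGGG was in 7 members (12.5%, against 21.1% and 10.9%), and CCAAT was in 26 (46.4%, against 38.1% and 39.6%). Base composition was not matched between the sets of promoters, and a match is a run of letters and not a measured binding site.

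The 100 bases before the annotated start are shown for 3 members with low unadjusted p-values that hold the ETS or NRF1 core in these bases. They are also shown for 2 members of the S18 family, because one sits in each subunit. Mrpl37, Mrpl4, Mrpl54 and Mrps9, also at an unadjusted p under 0.05 in edgeR, held neither core in these bases. Capitals mark the ETS core and the NRF1 core on either strand, with the letters in gene orientation.
Mrpl22, GRCr8 chr10:42845810-42845909, plus strand: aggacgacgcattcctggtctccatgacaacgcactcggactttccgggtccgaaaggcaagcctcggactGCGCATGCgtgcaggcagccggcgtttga
Mrpl27, GRCr8 chr10:80092245-80092344, plus strand: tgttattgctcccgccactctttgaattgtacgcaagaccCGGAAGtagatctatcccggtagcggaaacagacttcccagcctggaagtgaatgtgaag
Mrps16, GRCr8 chr15:3967709-3967808, plus strand: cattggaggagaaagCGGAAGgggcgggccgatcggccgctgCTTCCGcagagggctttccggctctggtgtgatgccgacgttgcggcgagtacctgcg
Mrps18a, GRCr8 chr9:22367381-22367480, minus strand: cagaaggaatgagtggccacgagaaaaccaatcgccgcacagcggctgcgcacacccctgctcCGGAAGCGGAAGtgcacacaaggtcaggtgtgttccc
Mrps18b, GRCr8 chr20:2842906-2843005, plus strand: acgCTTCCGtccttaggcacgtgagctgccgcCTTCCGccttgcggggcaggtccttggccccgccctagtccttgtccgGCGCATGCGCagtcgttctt
The median log2 fold change (doxorubicin over control, below) was -0.19 for the 29 tested members with the ETS core and -0.23 for the 24 tested members whose window lacked it. For the YY1 letters it was -0.13 with (14 members) and -0.26 without (39 members). It was -0.15 (4) and -0.23 (49) for the NRF1 core and -0.08 (8) and -0.23 (45) for the longer ETS form. For CCAAT it was -0.19 (25) and -0.24 (28), and for Sp1, in the other direction, -0.23 (6) and -0.20 (47). These medians, from all 6 libraries, are descriptions and were not tested.

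Library totals ranged from 2219685 to 3508282 counts. Levels are given in CPM, counts scaled to a common library total with factors from the trimmed mean of M-values (TMM). The low-count filter kept 9205 symbols, among them 68 members, with 50 to 1306 counts per member and library and a median of 206. At that median the counting error alone is 6.97% of the value. The cardiomyocyte markers Myh6, Tnnt2, Tnni3, Actc1 and Myl2 had at least 18920 counts in each library. In bulk tissue, fewer cells of a type and less RNA per cell cannot be told apart. Control library 1 stood apart from the others, with 6615 CPM of red blood cell markers (8 listed, Alas2 at 0 in all libraries) against 2069 and 2581 CPM in control libraries 2 and 3 and 711 to 2849 CPM in doxorubicin libraries.

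No member passed the adjusted threshold of 0.05 in edgeR's quasi-likelihood test with Benjamini-Hochberg adjustment over all 9205 symbols, a threshold that 0.0543% of tested symbols passed. The smallest adjusted p among members was 0.357, for Mrps24. DESeq2 also called 0 members. At an unadjusted p under 0.05, 8 of 68 members were lower in doxorubicin hearts (11.8%) and 0 were higher, against 4.11% lower and 4.00% higher over all tested symbols (8.10% in either direction). A log2 fold change below 0 was found for 62 of 68 members (91.2%), against 47.9% of all tested symbols. The median over members was -0.22, which is 14.2% lower, beside 0.02 over all tested symbols. The standard error (SE) of a single member's log2 fold change was 0.17 to 0.27, similar in size to the median difference itself.

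**Figure D1:**
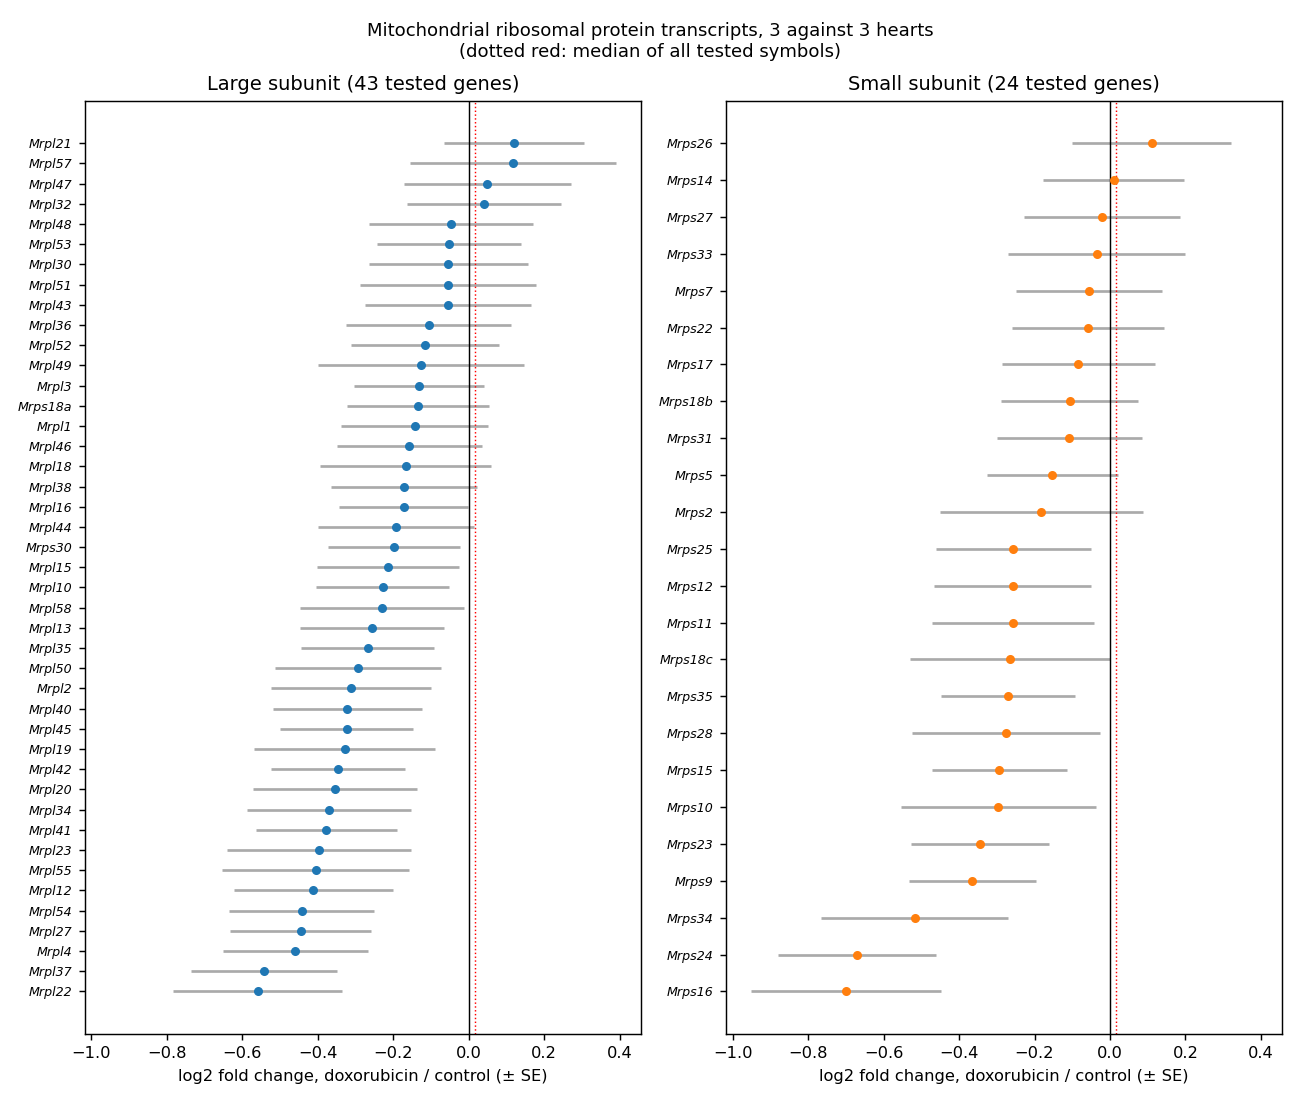
Log2 fold change of each tested large-subunit (left, 43 genes) and small-subunit (right, 24 genes) member, doxorubicin over control, with its SE as a bar. Most points lie left of 0 in both panels, from -0.70 for Mrps16 to 0.12 for Mrpl21, while the median of all tested symbols (dotted) is 0.02.

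Control library 1 carried much of this difference. It held the highest value of the 6 libraries for 48 of the 68 members, whereas control libraries 2 and 3 did so for 10 and 4 members and the 3 doxorubicin libraries for 1, 2 and 3. Without it, 50 of 68 members were below 0 (73.5%, against 46.8% of all tested symbols) with a median of -0.11. Then 3 members (4.41%, against 2.65%) were lower at an unadjusted p under 0.05 in edgeR, namely Mrpl37, Mrps24 and Mrps9. With doxorubicin library 1 left out instead, the count was 2 (2.94%, against 2.88%). Control library 1 also had the highest mean log2 CPM of cytosolic ribosomal protein genes, 8.58 against 7.85 to 8.21 in the other 5. The part of blood or of other properties of that heart in the members' values was not tested.

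**Figure D2:**
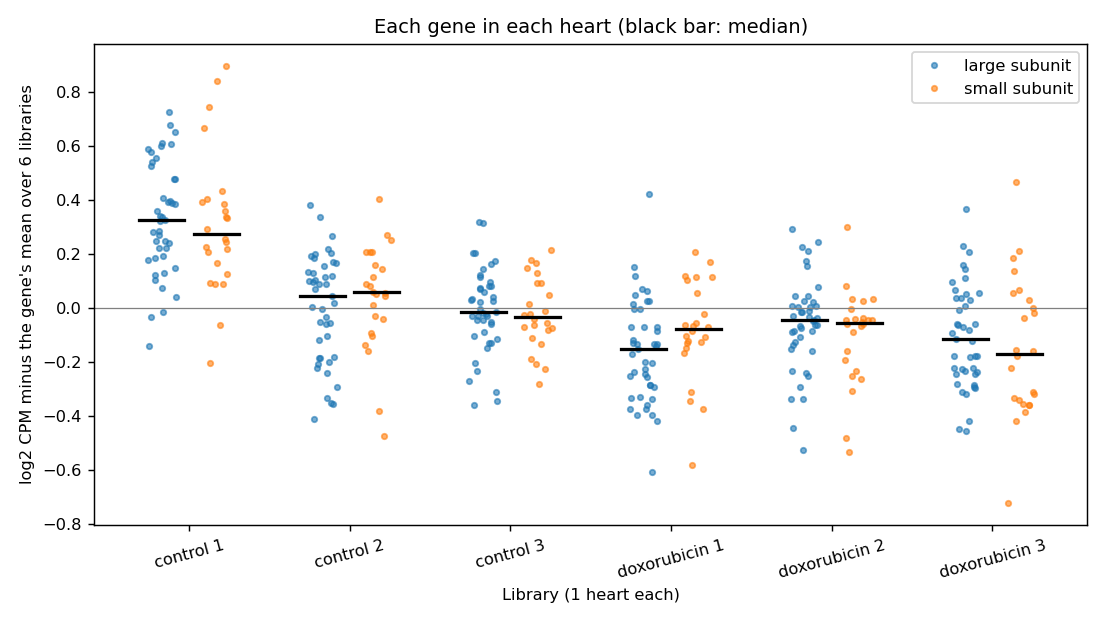
Log2 CPM of each member in each of the 6 libraries, minus the gene's own mean over the libraries, with large-subunit genes in blue, small-subunit genes in orange and the median as a bar. Control library 1 is the highest for 48 of 68 members, and the mean log2 CPM of both subunits was highest there. From doxorubicin library 1 to 2 that mean rose for the large (6.10 to 6.20) but not for the small subunit (5.94 to 5.92).

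Summed over the tested large-subunit members, the level was 4929, 3900 and 3851 CPM in control libraries 1, 2 and 3 and 3387, 3675 and 3480 CPM in doxorubicin libraries 1, 2 and 3. The lowest control library lay just above the highest doxorubicin library. The small-subunit sum was 2277, 1891 and 1808 CPM in control and 1711, 1713 and 1608 CPM in doxorubicin libraries, again without overlap. As means these were 4227 ± 609 and 3514 ± 147 CPM for the large and 1992 ± 251 and 1677 ± 59.6 CPM for the small subunit (SD, n = 3), with control library 1 well above the other control libraries. Members together took 0.667%, 0.612% and 0.593% of the counts in control and 0.538%, 0.576% and 0.555% in doxorubicin libraries.

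The comparison of the large with the small subunit asked whether their transcripts differed in the same measure. The median log2 fold change was -0.21 over 43 tested large-subunit members (39 below 0) and -0.26 over 24 tested small-subunit members (22 below 0). Without control library 1 the medians were -0.13 (30 of 43 below 0) and -0.10 (19 of 24 below 0). At an unadjusted p under 0.05 in edgeR, 5 large-subunit members (11.6%) and 3 small-subunit members (12.5%) were lower, against 4.11% of all tested symbols. These counts were 1 and 2 without control library 1, against 2.65% of all tested symbols. The ratio of large- to small-subunit counts was 2.16, 2.06 and 2.13 in control libraries and 1.98, 2.15 and 2.16 in doxorubicin libraries, so the groups overlapped. The mean log2 CPM of the large minus the small subunit was 0.23 ± 0.03 in control and 0.24 ± 0.07 in doxorubicin hearts (SD, n = 3). No difference between the subunits beyond the spread between hearts was seen, and the sign of the difference of medians (0.043) turned with several settings, to -0.028 without control library 1.

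By evolutionary class, the median was -0.26 over 23 large-subunit members classed as having a bacterial homologue and -0.18 over 20 classed as mitochondrion-specific. In the small subunit it was -0.26 over 14 and -0.11 over 10 members, respectively. Without control library 1 the same 4 medians were -0.13, -0.09, -0.11 and -0.09, closer to one another than with it. By place in the ribosome, the median was -0.32 over 4 members of the L7/L12 stalk, which recruits translation factors, -0.32 over 5 members at the peptide exit tunnel and -0.24 over 4 members of the peptidyl transferase core. It was -0.17 over 7 members of the central protuberance, the knob that contacts the small subunit, and -0.11 over 7 members of the small-subunit head. With control library 1 left out, it was -0.18 for the stalk, -0.11 for the exit tunnel, -0.20 for the peptidyl transferase core and -0.086 for the head. For the central protuberance it was 0.0045 without that library, with 3 of 7 members below 0 in place of 7. Each member was put in a single place, so Mrpl4 counted with the peptidyl transferase core and Mrpl27 with the central protuberance. These groups are small, and no difference between them was tested.

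In the small subunit, Mrps24, which lies where messenger RNA enters, had the smallest p of all members. Its level was 131, 82.8 and 85.8 CPM in control libraries 1, 2 and 3 and 63.0, 65.3 and 59.9 CPM in doxorubicin libraries 1, 2 and 3. The groups did not overlap, and the highest doxorubicin heart was below the lowest control heart. The log2 fold change was -0.67 (SE 0.21, edgeR adjusted p 0.357), and -0.42 without control library 1. Mrps5, its neighbour at the entrance, had a log2 fold change of -0.15, or -0.072 without that library.

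Mrps16, a protein of the small-subunit body, had the most negative log2 fold change of the members, -0.70 (SE 0.25, edgeR adjusted p 0.451). Its level was 148, 72.2 and 92.3 CPM in control and 53.1, 77.4 and 62.0 CPM in doxorubicin libraries, so doxorubicin library 2 lay above control library 2. Without control library 1 its log2 fold change was -0.36. Mrps34, a mitochondrion-specific protein of the small subunit, followed the same pattern: control library 1 had 131 CPM, while the 5 other libraries lay between 58.8 and 75.7 CPM. Its log2 fold change was -0.52 with all libraries and -0.14 without control library 1.

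Mrps9, a head protein near the tRNA sites, had closely similar control values. They were 143, 147 and 144 CPM, against 120, 103 and 114 CPM in doxorubicin libraries 1, 2 and 3. The log2 fold change was -0.36 (SE 0.17, edgeR adjusted p 0.610) and -0.37 without control library 1, so its size did not rest on that library.

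In the large subunit, Mrpl37, which is specific to mitochondria, was at 262, 182 and 181 CPM in control and 136, 153 and 139 CPM in doxorubicin libraries. No doxorubicin heart reached a control heart, and the log2 fold change was -0.54 (SE 0.19, edgeR adjusted p 0.440), or -0.34 without control library 1. Mrpl22 lines the peptide exit tunnel. It was at 68.9, 50.5 and 42.2 CPM in control and 33.3, 35.8 and 40.3 CPM in doxorubicin libraries, with a narrow gap between control library 3 and doxorubicin library 3. Its log2 fold change was -0.56 (SE 0.22), and -0.34 without control library 1.

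Mrpl4, whose bacterial homologue reaches into the tunnel wall, was at 338, 263 and 230 CPM in control and 182, 221 and 201 CPM in doxorubicin libraries (log2 fold change -0.46, SE 0.19). Mrpl27, the homologue of a bacterial protein close to the peptidyl transferase centre, was at 129, 92.6 and 104 CPM in control and 75.5, 87.7 and 75.8 CPM in doxorubicin libraries (log2 fold change -0.45, SE 0.19). Mrpl54 was at 210, 143 and 151 CPM in control and 117, 133 and 121 CPM in doxorubicin libraries (log2 fold change -0.44, SE 0.19). For each of these 3 genes every doxorubicin value lay below every control value, and the edgeR adjusted p was 0.549 to 0.575. The log2 fold changes were smaller without control library 1, -0.29 for Mrpl4, -0.30 for Mrpl27 and -0.25 for Mrpl54.

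**Figure D3:**
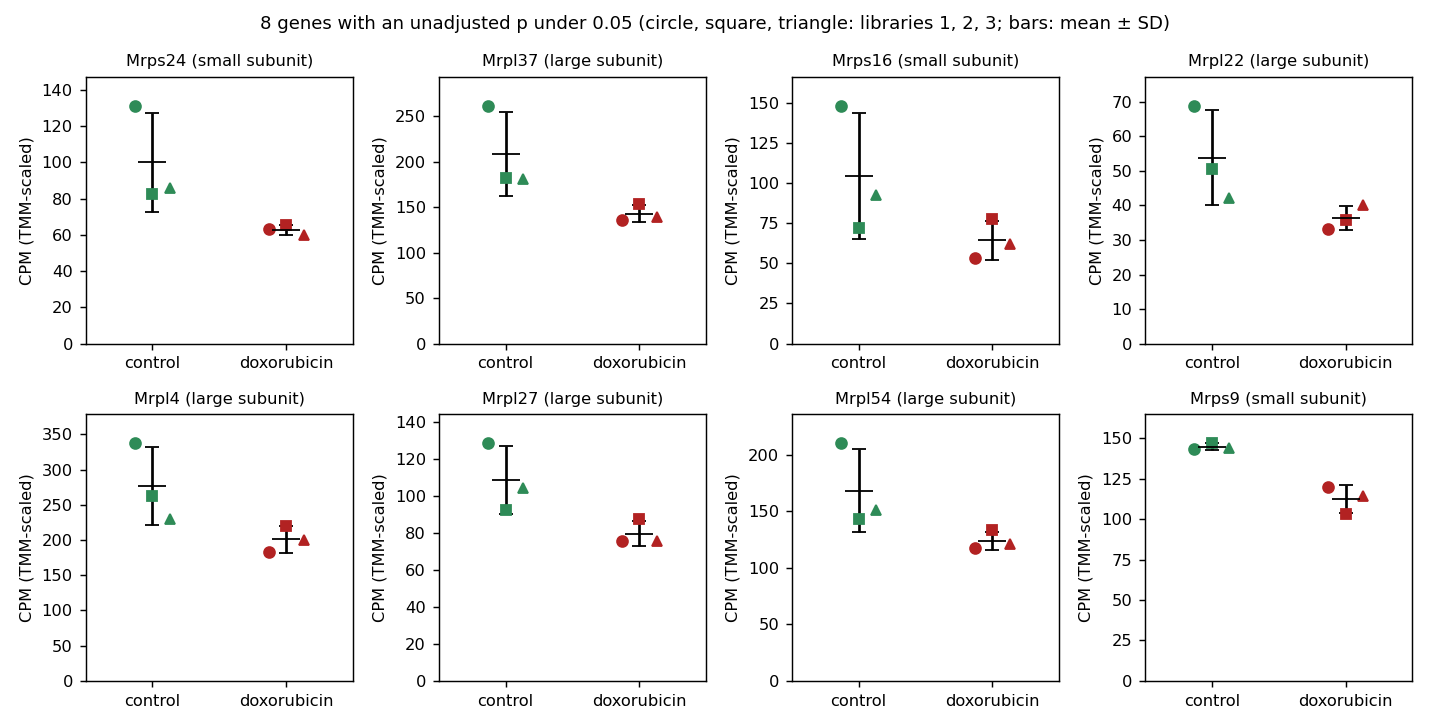
CPM of the 8 members with an unadjusted p under 0.05, in the 3 control (green) and 3 doxorubicin (red) libraries, with mean ± SD. The circle of control library 1 is the highest point for each gene except Mrps9, and the groups overlap for Mrps16 alone.

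Groups did not overlap for 17 of the 68 tested members with lower doxorubicin values (25.0%) and for 1 with higher values, against 7.06% and 6.39% of all tested symbols. The 17 included Mrpl41, at 63.8 to 78.4 CPM in control and 52.8 to 60.3 CPM in doxorubicin libraries, and Mrps30, at 111 to 113 CPM in control and 84.0 to 105 CPM in doxorubicin libraries. The log2 fold changes of these 2 genes were -0.38 (SE 0.19) and -0.20 (SE 0.18). Mrps36, the dehydrogenase component, was also among them, with 220 to 268 CPM in control and 190 to 218 CPM in doxorubicin libraries and a log2 fold change of -0.20, or -0.11 without control library 1.

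The member without overlap in the other direction was Mrpl21, at 48.0, 45.2 and 48.1 CPM in control and 51.5, 50.7 and 51.4 CPM in doxorubicin libraries. The gap was small beside the counting error of genes at this level, and the log2 fold change was 0.12 (SE 0.19). The other members with a positive log2 fold change were Mrpl57 (0.12), Mrps26 (0.11), Mrpl47 (0.05), Mrpl32 (0.04) and Mrps14 (0.01), and the groups overlapped for each of them. Inherited defects of MRPS14 have been linked to cardiomyopathy in people, and the rat gene averaged 92.2 ± 15.5 CPM (SD, n = 3) without and 92.6 ± 6.55 CPM (SD, n = 3) with doxorubicin.

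Mrpl12, the stalk protein to which translation factors are recruited, had the highest CPM of the members, without correction for transcript length. It was at 497, 314 and 332 CPM in control and 293, 323 and 244 CPM in doxorubicin libraries. The groups overlapped, since doxorubicin library 2 exceeded control library 2, and the log2 fold change was -0.41 (SE 0.21), or -0.17 without control library 1. Mrpl3 and Mrpl44, whose inherited defects cause cardiomyopathy in people, showed -0.13 (SE 0.17) and -0.19 (SE 0.21) on the same log2 fold change scale, the latter being -0.027 without control library 1. For Mrps22, another gene with such defects, it was -0.06 (SE 0.20). Mrpl58, a peptidyl-tRNA hydrolase built into the large subunit, was at 150 CPM in control library 1 and between 84.6 and 94.1 CPM in the 5 others. Its log2 fold change was -0.23, and 0.07 without control library 1.

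The S18 family offers a comparison within a set of paralogs, of which Mrps18a is in the large and Mrps18b and Mrps18c are in the small subunit. Their log2 fold changes were -0.14 (SE 0.19), -0.11 (SE 0.18) and -0.27 (SE 0.27), each no larger than its own error, and 0.020, -0.068 and 0.062 without control library 1. Mrps18b averaged 213 ± 15.3 CPM (SD, n = 3) without and 198 ± 30.0 CPM (SD, n = 3) with doxorubicin, and Mrps18c was at 54.8, 24.8 and 36.8 CPM in control and 30.7, 30.2 and 36.1 CPM in doxorubicin libraries. How reads shared by paralogs were counted was not given in the sources used here.

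**Figure D4:**
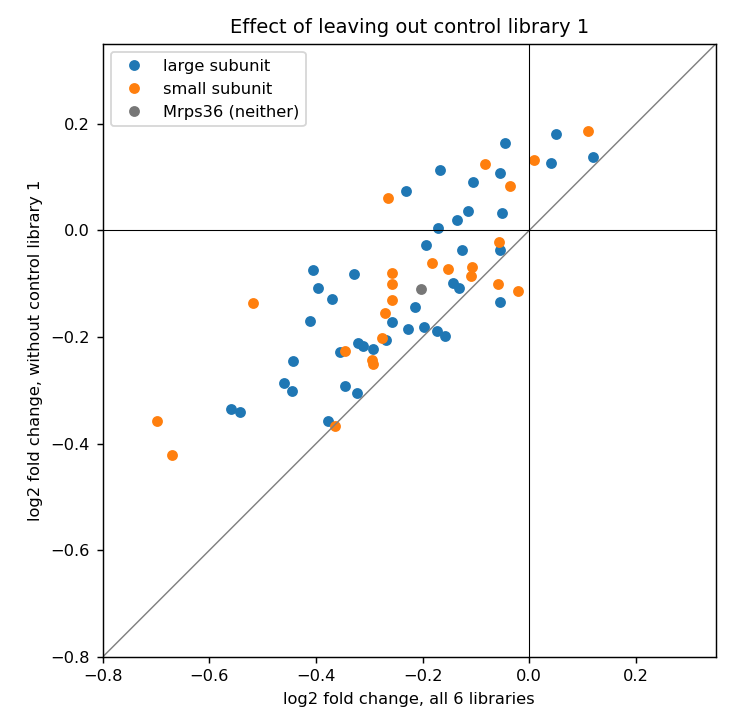
Log2 fold change of each tested member with all 6 libraries (horizontal axis) and without control library 1 (vertical axis), with the line of equal values. Most points lie above the line: the median moves from -0.22 to -0.11, while Mrps9 stays at -0.36 and -0.37.

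Of the 71 members, 3 were below the filter, with 0 to 7 counts per library. Mrpl17 had 3, 2 and 6 counts in control and 7, 5 and 5 in doxorubicin libraries, Mrpl14 had 4, 0 and 0 against 0, 0 and 1, and Mrps21 had 1, 0 and 6 against 0, 2 and 1. These counts are near the floor of 3 counts (0.855 to 1.35 CPM), and no difference was detectable. Each of the 3 stood on several rows of the table, as did Mrps27, and how reads were divided among such rows was not given in the sources used here. The 3 genes spelled in lower case had log2 fold changes of 0.00 for mrpl9, -0.20 for mrpl11 and -0.35 for mrpl24 (SE 0.18, 0.18 and 0.17), and 0 of them passed in edgeR.

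Components of the same ribosome with other symbols (Dap3, Ptcd3, Chchd1, Aurkaip1 and Gadd45gip1) had a median log2 fold change of -0.25, 4 of 5 being below 0, and -0.24 without control library 1. Gadd45gip1, a large-subunit protein, averaged 97.0 ± 23.6 CPM (SD, n = 3) without and 67.3 ± 7.02 CPM (SD, n = 3) with doxorubicin, and had a log2 fold change of -0.53 (SE 0.21, edgeR adjusted p 0.506), or -0.31 without control library 1. For Chchd1, of the small subunit, it was -0.28 (SE 0.22), or -0.026 without that library.

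Among 23 tested factors for ribosome assembly and rRNA modification, 18 were below 0 (78.3%, against 47.9% of all tested symbols, median -0.19). Against 4.11% of all tested symbols, 2 factors (8.70%) were lower at an unadjusted p under 0.05 in edgeR. These were Rbfa, which helps the small subunit to mature, with averages of 104 ± 13.8 CPM in the control and 72.5 ± 5.57 CPM in the doxorubicin group, and Noa1, a GTPase of ribosome assembly, with 18.8 ± 2.55 and 11.1 ± 3.03 CPM (SD, n = 3). Their log2 fold changes were -0.51 (SE 0.18) and -0.74 (SE 0.30), with edgeR adjusted p-values of 0.439 and 0.520.

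Of 13 tested genes listed as translation factors, 11 were below 0 (84.6%, against 47.9% of all tested symbols, median -0.10). The 13 included Oxa1l and Letm1, both below 0, which encode inner-membrane proteins and not translation factors. Tufm and Tsfm were lower at an unadjusted p under 0.05 in edgeR (15.4%, against 4.11%). These encode the elongation factor that brings aminoacyl-tRNA to the ribosome and its recycling partner. Tufm was at 464, 547 and 430 CPM in control and 399, 367 and 287 CPM in doxorubicin libraries, without overlap, and control library 1 was not the highest. The log2 fold changes were -0.45 (SE 0.19) for Tufm and -0.49 (SE 0.22) for Tsfm, with edgeR adjusted p-values of 0.550 and 0.578.

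Of 16 tested mitochondrial aminoacyl-tRNA synthetase genes, 12 were below 0 (75.0%, against 47.9% of all tested symbols, median -0.15). The 16 included subunits of the enzyme that forms glutaminyl-tRNA. At an unadjusted p under 0.05 in edgeR, 1 of the 16 was lower (6.25%, against 4.11% of all tested symbols) and 0 were higher. This was Cars2, the cysteinyl enzyme, with a log2 fold change of -0.61 (SE 0.21, edgeR adjusted p 0.404). The next smallest p was that of Qrsl1 (-0.39, SE 0.23). Of 18 tested genes for mitochondrial transcription and mRNA handling, 12 were below 0 (66.7%, against 47.9% of all tested symbols, median -0.10). In this list 0 had an unadjusted p under 0.05 in edgeR, against 8.10% of all tested symbols. The smallest p belonged to Slirp (-0.32, SE 0.23) and Mterf2 (-0.44, SE 0.31). Of 9 nuclear regulators of mitochondrial biogenesis, 3 were below 0 (33.3%, against 47.9%) and 6 above it (median 0.09). Here too 0 had an unadjusted p under 0.05 in edgeR, against 8.10% of all tested symbols. The 9 included Esrra, a nuclear receptor, at -0.38 (SE 0.20) and Pprc1, a coactivator, at 0.41 (SE 0.25). Groups did not overlap for 2 of the 9 with higher doxorubicin values, against 6.39% of all tested symbols, and for 0 with lower values. These were Nrf1 (0.49, SE 0.33) and Myc (0.47, SE 0.35), at 0.49 and 0.45 without control library 1. Without control library 1 the medians of these lists were -0.17 for assembly and rRNA modification (16 of 23 below 0), -0.096 for translation factors (10 of 13) and -0.14 for synthetases (12 of 16). They were -0.10 for transcription and mRNA handling (12 of 18) and 0.19 for nuclear regulators (4 of 9 below 0). Of all tested symbols, 46.8% were below 0 without that library. Among the single genes named, Qrsl1 was then at -0.13, Slirp at -0.13, Esrra at -0.25, Tsfm at -0.35, Cars2 at -0.47 and Noa1 at -0.67. Rbfa was at -0.55, Tufm at -0.47, Mterf2 at -0.61 and Pprc1 at 0.45, none of them closer to 0 than with all libraries. No difference between these lists and the members was tested.

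**Figure D5:**
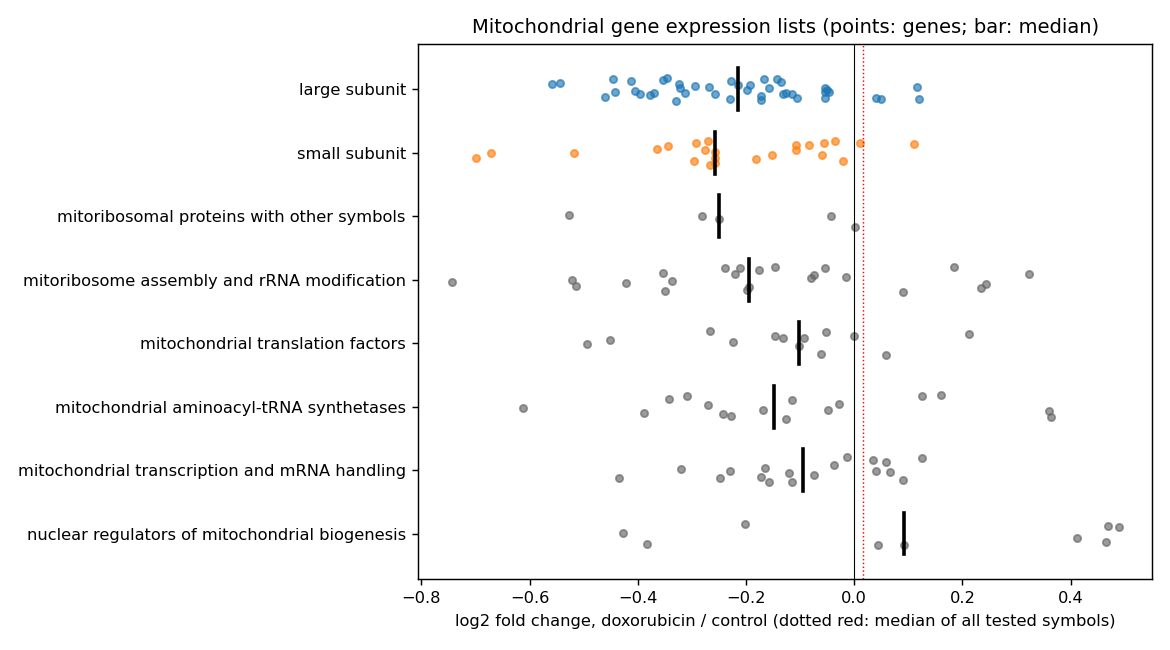
Log2 fold change of single genes (points) and list medians (bars) for members of both subunits and for 6 lists of other genes of mitochondrial gene expression. The subunit medians are -0.21 and -0.26, the other lists run from -0.25 to 0.09, and the dotted line marks 0.02, the median of all tested symbols.

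Beside these, 31 tested subunits of respiratory complex I had a median log2 fold change of -0.42, with 30 below 0 (96.8%). For 66 tested cytosolic ribosomal protein genes it was -0.06, with 44 below 0 (66.7%), against 47.9% of all tested symbols. At an unadjusted p under 0.05 in edgeR, 12 complex I subunits (38.7%) and 1 cytosolic ribosomal protein gene (1.52%) were lower, against 4.11%. Groups did not overlap for 13 complex I subunits with lower values (41.9%, against 7.06%). Without control library 1 the 2 medians were -0.22 and 0.17. Then 31 of 31 and 3 of 66 genes were below 0, against 46.8% of all tested symbols. At an unadjusted p under 0.05 in edgeR, 1 complex I subunit and 0 cytosolic ribosomal protein genes were then lower, against 2.65%. Cardiomyocyte markers summed to 111680 to 116684 CPM in control and 96836 to 107123 CPM in doxorubicin libraries, without overlap. Of 9 tested cardiomyocyte markers, 8 were below 0 (88.9%, against 47.9% of all tested symbols). Their log2 fold changes were uneven, from -1.62 for Ryr2 (edgeR adjusted p 0.044) and -0.73 for Myh6 to -0.02 for Myl2 and 0.17 for Pln. Macrophage markers summed to 104 to 142 CPM in control and 153 to 231 CPM in doxorubicin libraries, also without overlap. Of 7 tested macrophage markers, 6 were above 0 and 1 below it (14.3%). The part of cell composition in the members' lower values was not tested. The summed levels of endothelial, fibroblast and smooth muscle markers overlapped between the groups. Lymphocyte markers were at most 8.84 CPM in any library.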

How the data were processed

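For 6 rat heart libraries the authors deposited whole-number read counts by gene row, which were not normalized. Trimmomatic, STAR, HTSeq and the build mRatBN7.2 are named in the submitters' processing notes. Versions, annotation, counting mode and use of strand were not given in the sources used here. The table held 18473 rows, and rows of a symbol were summed to 17487 symbols. Doxorubicin was compared with control, 3 against 3 rats, by edgeR 4.0.16 (R 4.3.3): TMM factors, filterByExpr (minimum count 10, minimum total 15), robust quasi-likelihood F test, Benjamini-Hochberg adjustment over all tested symbols, threshold 0.05. SE is the absolute log2 fold change over the square root of F. Mean log2 CPM used a prior count of 2, and sums of marker CPM were scaled by library total only. The scripts were tested on simulated data. Python 3.11.15 with pandas 2.3.3 and matplotlib 3.10.9 made summaries and figures.

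Members and lists were chosen with earlier results of these data known. Named members were the 10 of smallest p, the 5 largest differences in each direction, the 5 of highest CPM, those without overlap at an unadjusted p under 0.05, and 14 fixed genes (Mrpl24 is spelled in lower case in the table), and the 2 of smallest p in each further list. Other members named, and Nrf1 and Myc among the nuclear regulators, were chosen after their values were seen. Alternatives were median-of-ratios factors, library size only, no filter, a mean CPM of at least 1, DESeq2 1.42.0, voom (limma 3.58.1) with sample quality weights, a replicate block, leaving out each library, symbols on 1 row only and subunits by symbol. Adding the lower-case symbols was chosen after seeing the data.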

Additional observations from a re-analysis of the deposited data

How the results depend on the processing

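Under each of 15 alternatives 0 members passed the adjusted threshold, and under each alternative run on it either subunit's median log2 fold change stayed below 0. The count of members lower at an unadjusted p under 0.05, 8 with all libraries and TMM factors, was 4 with scaling to library totals alone (5.88%, against 2.52% of all tested symbols), where the median of all symbols went from 0.02 to 0.10. It was 2 to 10 when 1 library was left out (2 without doxorubicin library 1, 3 without control library 1, 10 without control library 2). Those are 2.94%, 4.41% and 14.7% of the members, against 2.88%, 2.65% and 4.50% of all tested symbols, so the count without doxorubicin library 1 was at the background. With the replicate block it was also 4 (5.88%, against 3.05%). Same-numbered hearts are different animals, and their deviations from the group means did not go together (correlations 0.02, -0.19 and -0.06). With 3 hearts per group, these values cannot show whether same-numbered samples shared a batch. Over all tested symbols, 13 passed the adjusted threshold with the replicate block, against 5 without it. Members without overlap were 18 to 35 lower and 1 to 3 higher with 1 library left out (35 without control library 3, 51.5% against 11.6% of all tested symbols). Over all tested symbols the shares then were 10.1% to 13.4% lower and 10.5% to 13.2% higher, since fewer values have to be separated.

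Voom with sample quality weights, which gave control library 1 a weight of 0.438, put the small-subunit median at -0.11 and the large minus small difference at -0.062. With subunits by symbol alone that difference was -0.025. Leaving out 1 library gave small-subunit medians of -0.31 to -0.10 and differences of -0.073 to 0.021, so neither subunit stood lower throughout. Of 364 log2 fold changes of named members over 14 alternatives, 16 changed sign and 0 passed the threshold. Mrps22 became 0.023 with library totals alone. The other sign changes came with 1 library left out, where the ranges were -0.078 to 0.13 for Mrpl32, -0.097 to 0.18 for Mrpl47, -0.069 to 0.45 for Mrpl57, -0.37 to 0.073 for Mrpl58, -0.12 to 0.13 for Mrps14, -0.21 to 0.020 for Mrps18a, -0.19 to 0.022 for Mrps18b, -0.48 to 0.062 for Mrps18c, -0.18 to 0.054 for Mrps22 and -0.0074 to 0.29 for Mrps26. The cause of these changes was not tested. At the members' median of 206 counts the counting error was 6.97%, and the median SE of a member's log2 fold change was 0.20.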
